A study of Mus musculus with 8 samples.

Results

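Oxidative phosphorylation couples the oxidation of NADH to the synthesis of ATP at the inner mitochondrial membrane. Complexes I, III and IV pass electrons to oxygen and pump protons, and ATP synthase (complex V) lets the protons flow back to make ATP. Each of these complexes is assembled from subunits of separate genomes, because the core membrane subunits are encoded by the circular mitochondrial DNA, whereas the other subunits are transcribed in the nucleus and imported. In macrophages and T cells the balance between this pathway and glycolysis is known to change with activation.

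The expression of these genes was examined in CD45+ cells of E0771 tumors. Symbols that begin with Nduf followed by a, b, c, s or v, Cox4 to Cox8 followed by a, b or c, Uqcr or Atp5 gave the nuclear set, and mt-Nd, mt-Co, mt-Cytb and mt-Atp gave the mitochondrial set. Of 101 matched symbols, 97 had at least 50 unique molecular identifiers (UMIs, which count RNA molecules) over all deposited cells, out of 32285 genes in the files. They comprised 84 nuclear genes, of which 37 belong to complex I, 8 to complex I assembly, 8 to complex III, 13 to complex IV and 17 to complex V, with Cox7a2l, a factor of respiratory supercomplexes, beside them. The 13 mitochondrial genes were 7 of complex I, 1 of complex III, 3 of complex IV and 2 of complex V. Cox7b2, Cox8b, Cox8c and Ndufa4l2 stayed below the minimum, and Cox4i1 is not matched by these symbols. Ndufa4 was counted in complex IV, where its protein is found.

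E0771 is a mammary carcinoma line of C57BL/6 mice. E0771-Res1 and E0771-Res2 were derived from tumor cells isolated from E0771 tumors that recurred after paclitaxel and anti-PD-1, so that each is a single derived line. Cells of the 3 lines were implanted into the mammary fat pad of female C57BL/6 mice, and CD45+ cells were sorted on day 18. The labels give no treatment of these mice. There were 2 E0771 mice (replicates 1 and 3, since a further E0771 mouse was not analysed here), 3 E0771-Res1 mice and 3 E0771-Res2 mice. The cells of several mice were tagged and pooled before capture. Between lines the p-values measure the spread between these mice. Between cell classes, where mouse was a block, they measure how the difference within a mouse varies over the mice.

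Of 11430 deposited cells, 10605 had 500 to 6000 detected genes and under 10% of UMIs from mt- genes. Cells with at least 2 UMIs of Cd3d, Cd3e, Cd3g and Ncr1 together were called lymphoid (1284 cells). Of the other cells with at least 5 UMIs of Lyz2, Csf1r, Cd68, Itgam and Itgax, 2323 had at least 10 UMIs of C1qa, a complement gene of tissue macrophages, and 4344 had at most 1. These are the C1qa-high and C1qa-low myeloid cells. The summed T cell markers ran from 2337 to 3260 CPM (UMIs scaled to a total of 1000000) in the lymphoid sums of the 8 mice and from 28.7 to 87.1 CPM in the myeloid sums. A list of macrophage markers without C1qa ran from 13717 to 18783 CPM in C1qa-high and from 2172 to 3252 CPM in C1qa-low cells, whereas monocyte markers were at 1301 to 3322 and 6513 to 9887 CPM. The lymphoid sums held 2878 to 5929 CPM of the macrophage markers and 2154 to 3318 CPM of the monocyte markers. They thus held myeloid RNA, at median macrophage markers of 4640 CPM against 2500 CPM in C1qa-low cells. Of the lymphoid cells, 271 (21.1%) had at least 10 C1qa UMIs. Summed markers of natural killer cells ran from 975 to 2656 CPM in lymphoid cells, those of neutrophils from 22.6 to 294, of B cells from 43.6 to 139, of dendritic cells from 20.8 to 157 and of tumor and stromal cells from 5.40 to 27.3 CPM over all sums, and erythroid markers reached 125 CPM. No barcode was shared between mice (0 barcodes), and kept UMIs per mouse ran from 4993722 to 18544500. All 13 mt- genes of the files are members, so the limit on the mt- share acts directly on them. It removed 2.87% of lymphoid, 0.854% of C1qa-high and 3.51% of C1qa-low cells.

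The nuclear members lie on 19 chromosomes, with at most 8 on the same chromosome. Several of their promoters hold the letters of known regulators of respiratory genes, and 4 are printed here because their genes differ between the cell classes below. RefSeq (GRCm38.p6) gave a promoter for 70 nuclear members, and windows from 250 bases before to 50 bases after the start were searched on both strands. The motif of NRF1, nuclear respiratory factor 1, is the stretch in capitals in the first 3 runs, with any base allowed at the sixth position. It stood in 17 of the 70 promoters (24.3%) and in 5.19% of the promoters of 27025 symbols. The ETS motif CCGGAAG, as bound by GABP, was found in 24.3% against 9.93%, and the SP1 motif GGGCGG in 44.3% against 38.2%. Capitals mark the NRF1 motif in Ndufaf4 (plus strand, chr4:24897833-24898082), Ndufs5 (minus strand, chr4:123718203-123718436) and Atp5h (minus strand, chr11:115419963-115420169), and in Uqcrh (minus strand, chr4:116075072-116075320) the ETS motif as it reads on the opposite strand. Each run is 5′ to 3′ on the strand of its gene and stops before its first exon.
Ndufaf4: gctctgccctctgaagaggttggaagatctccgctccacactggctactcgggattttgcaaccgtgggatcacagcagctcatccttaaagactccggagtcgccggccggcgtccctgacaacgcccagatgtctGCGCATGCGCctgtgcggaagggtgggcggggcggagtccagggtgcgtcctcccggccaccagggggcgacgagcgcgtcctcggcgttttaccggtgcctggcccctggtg
Ndufs5: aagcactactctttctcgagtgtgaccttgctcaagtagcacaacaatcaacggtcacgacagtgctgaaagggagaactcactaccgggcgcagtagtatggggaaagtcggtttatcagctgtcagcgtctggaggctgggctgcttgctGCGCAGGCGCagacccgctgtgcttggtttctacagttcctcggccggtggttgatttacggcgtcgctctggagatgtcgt
Atp5h: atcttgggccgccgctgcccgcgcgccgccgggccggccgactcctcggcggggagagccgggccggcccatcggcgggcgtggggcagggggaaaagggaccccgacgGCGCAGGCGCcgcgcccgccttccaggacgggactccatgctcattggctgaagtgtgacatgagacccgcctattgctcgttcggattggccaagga
Uqcrh: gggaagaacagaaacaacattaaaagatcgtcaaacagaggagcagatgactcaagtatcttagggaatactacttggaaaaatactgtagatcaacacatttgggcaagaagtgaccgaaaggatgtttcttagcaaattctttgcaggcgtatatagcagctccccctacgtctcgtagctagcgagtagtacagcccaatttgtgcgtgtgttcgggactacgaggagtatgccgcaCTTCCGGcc

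The mitochondrial genes are packed on a single circle, and 12 of the 13 are on its plus strand while mt-Nd6 is on its minus strand. Some overlap, so that the reads of neighbors cannot be fully separated. mt-Atp8 (M:7766-7969) and mt-Atp6 (M:7927-8607), both subunits of ATP synthase, share 43 bases, printed here in lower case as an example of how the mitochondrial genome is used in overlapping frames (chrM:7927-7969, plus strand, no letters in capitals). mt-Nd5 (M:11742-13565) and mt-Nd6 (M:13552-14070) share 14 bases on opposite strands.
mt-Atp8 and mt-Atp6: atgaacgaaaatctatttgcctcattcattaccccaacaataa

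Transcripts of the nuclear and of the mitochondrial set were about equally abundant in lymphoid cells, whereas myeloid cells held less of the mitochondrial set. Nuclear members summed to 20601 ± 714 CPM in lymphoid, 19973 ± 803 CPM in C1qa-high and 18395 ± 717 CPM in C1qa-low cells (mean ± SD, n = 8 mice). Mitochondrial members summed to 19725 ± 1222, 15500 ± 2037 and 16242 ± 1555 CPM. The mitochondrial sum per mouse ran from 17743 to 21808 CPM in lymphoid cells, from 12571 to 18596 CPM in C1qa-high cells and from 14291 to 18932 CPM in C1qa-low cells, so that the ranges of the classes overlapped. Within a mouse, lymphoid cells held more than either myeloid class in 8 of 8 mice.

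**Figure D1:**
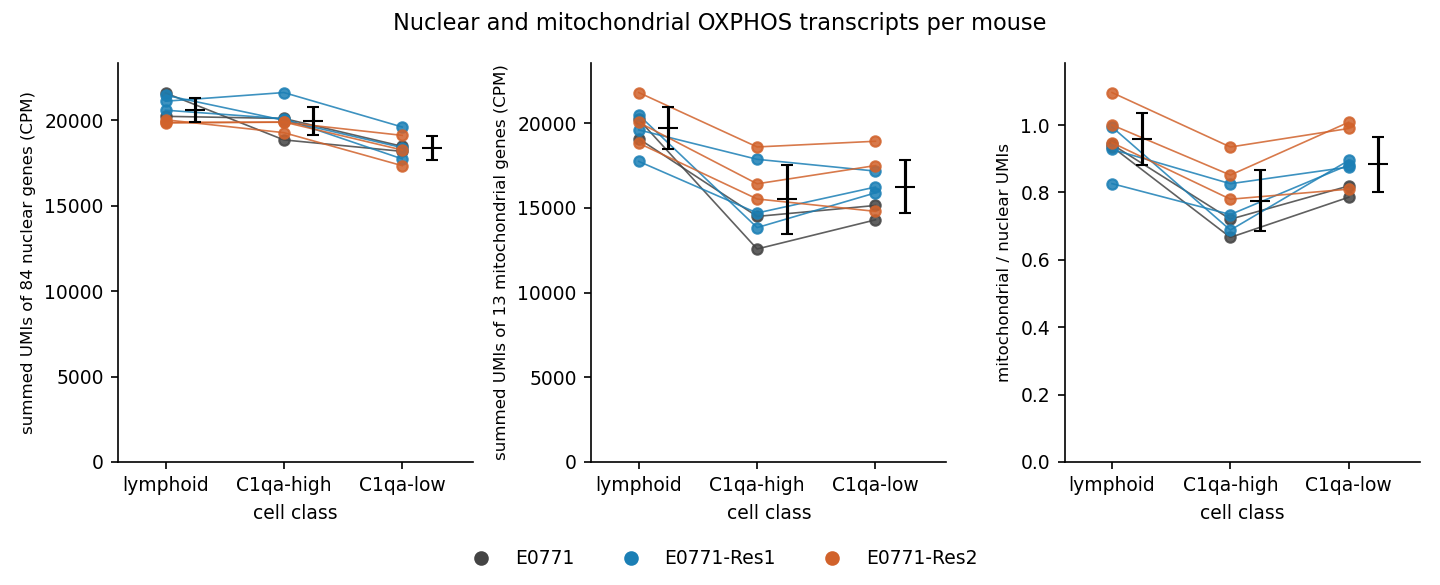
Summed CPM of the 84 nuclear genes (left), of the 13 mitochondrial genes (middle) and the ratio of the mitochondrial to the nuclear sum (right) by cell class, with a point per mouse, lines joining the classes of a mouse and black bars for the mean ± SD of 8 mice. The ratio is lowest in C1qa-high cells, at 0.775 ± 0.0910, and highest in lymphoid cells, at 0.959 ± 0.0770.

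The ratio of mitochondrial to nuclear UMIs is free of any scaling between samples. In lymphoid cells it was 0.943 and 0.936 in the E0771 mice, 0.928, 0.994 and 0.826 in the E0771-Res1 mice and 0.948, 1.10 and 1.00 in the E0771-Res2 mice. In C1qa-high cells it was 0.721 and 0.667, then 0.826, 0.688 and 0.735, then 0.780, 0.935 and 0.852 in the same order. It was 0.819 and 0.786, 0.875, 0.895 and 0.882, and 0.810, 0.990 and 1.01 in C1qa-low cells. Within each mouse the ratio was therefore higher in lymphoid than in C1qa-high cells in 8 of 8 mice, by 0.31 ± 0.14 on the log2 scale (SD). It was lower in C1qa-high than in C1qa-low cells in 8 of 8 mice, with a log2 difference of -0.19 ± 0.11, and higher in lymphoid than in C1qa-low cells in 6 of 8 mice, by 0.12 ± 0.12, which is no larger than the spread between mice.

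The sums of the sets themselves depended on the scaling. The printed CPM divide by the UMIs of the class in the mouse, whereas the fold changes below are edgeR's log2 values after its TMM normalization, which shifted the comparisons by 0.09 ± 0.02 (C1qa-high against C1qa-low), 0.08 ± 0.02 (lymphoid against C1qa-high) and 0.18 ± 0.03 (lymphoid against C1qa-low) on the log2 scale. The nuclear sum was higher in C1qa-high than in C1qa-low cells by 0.12 ± 0.04 in CPM and by 0.03 ± 0.05 after TMM, and in lymphoid cells it turned from 0.16 ± 0.07 above C1qa-low cells to -0.02 ± 0.07. The mitochondrial sum was higher in lymphoid than in C1qa-high cells by 0.36 ± 0.18 in CPM and by 0.28 ± 0.20 after TMM, in 8 of 8 mice on both scales. Against C1qa-low cells it was higher by 0.28 ± 0.12 in 8 mice and by 0.10 ± 0.12 in 7 of 8 mice.

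UMIs per cell, called depth here, moved with these sums. Whether sequencing, capture or the RNA content of a cell set its UMIs was not tested. When the cells of each class were ranked by UMIs and cut into 3 equal parts per mouse, the mitochondrial sum in C1qa-low cells was 24439, 14621 and 14625 CPM at median depths of 3731, 6771 and 9808 UMIs, and the nuclear sum was 15922, 18368 and 19207 CPM. In lymphoid cells the mitochondrial sum was 22740, 19543 and 19092 CPM at 4370, 9115 and 16962 UMIs. In each class the shallowest cells thus had the largest mitochondrial and the smallest nuclear CPM. These values are shares of the UMIs and not amounts per cell.

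**Figure D2:**
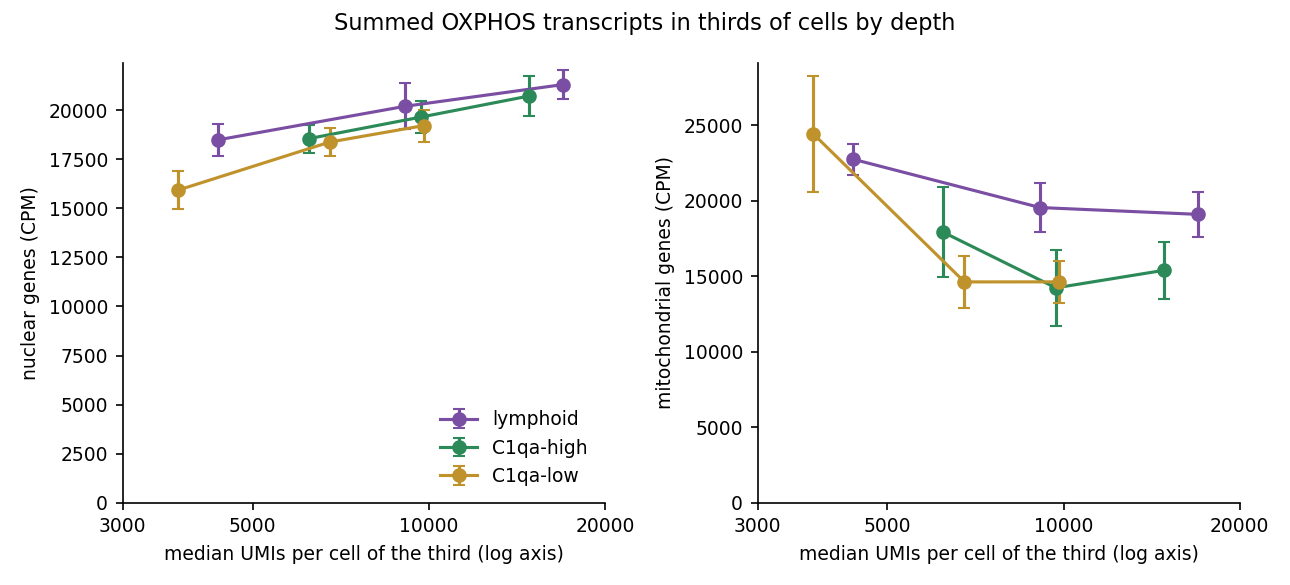
Summed CPM of nuclear (left) and mitochondrial genes (right) against the median UMIs per cell (log axis) for the shallowest, middle and deepest cells of each class, as mean ± SD over 8 mice. In the middle parts for lymphoid and C1qa-high and the deepest part for C1qa-low cells (9115, 9703 and 9808 UMIs), lymphoid cells hold 19543 CPM of the mitochondrial set, above the 14228 CPM of C1qa-high and 14625 CPM of C1qa-low cells.

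The comparisons were therefore repeated in cells of 6000 to 12000 UMIs, an alternative that was chosen after the data had been seen. In this window 473 lymphoid, 1147 C1qa-high and 2157 C1qa-low cells gave ratios of 0.964, 0.722 and 0.769. The ratio was higher in lymphoid cells in 8 of 8 mice against both myeloid classes, by 0.43 ± 0.17 and 0.33 ± 0.10. Between C1qa-high and C1qa-low cells the log2 difference was -0.10 ± 0.19, and 3 of 8 mice were higher, so that the difference over all kept cells was not seen in each mouse at like depth. The window also changes which cells of a class are compared. Malat1, a nuclear RNA, went from -0.07 ± 0.11 to 0.31 ± 0.14 in log2 CPM in C1qa-high against C1qa-low cells. In lymphoid against C1qa-low cells it went from -0.15 ± 0.11 to 0.24 ± 0.11, and against C1qa-high cells from -0.08 ± 0.10 to -0.06 ± 0.14. The part of this change in the values of the window was not tested. The nuclear sum in this window was higher in C1qa-high than in C1qa-low cells by 0.06 ± 0.04 in CPM, in 7 of 8 mice. After TMM the difference was -0.035 ± 0.041 with 2 of 8 mice higher, against 0.03 ± 0.05 with 6 of 8 over all kept cells. Over bins of C1qa the nuclear sum stayed between 18016 and 18584 CPM up to 19 UMIs and was 19213 CPM at 20 to 39 and 20784 CPM at 40 or more, while the median depth rose from 6751 UMIs at 0 C1qa UMIs to 12271 at 40 or more.

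Gene by gene, C1qa-high and C1qa-low cells were compared with mouse as a block. Of the 97 genes, 50 were called at an adjusted p under 0.05 (edgeR quasi-likelihood test, Benjamini-Hochberg adjustment over 9315 genes), where 56% of all genes were called (28.6% higher and 27.4% lower). Of the nuclear members, 30 rose and 13 fell, with a median log2 fold change of 0.05 against 0.03 for all genes. Of the mitochondrial members 1 rose and 6 fell, with a median of -0.10. The share of members called was thus close to that of all genes.

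**Figure D3:**
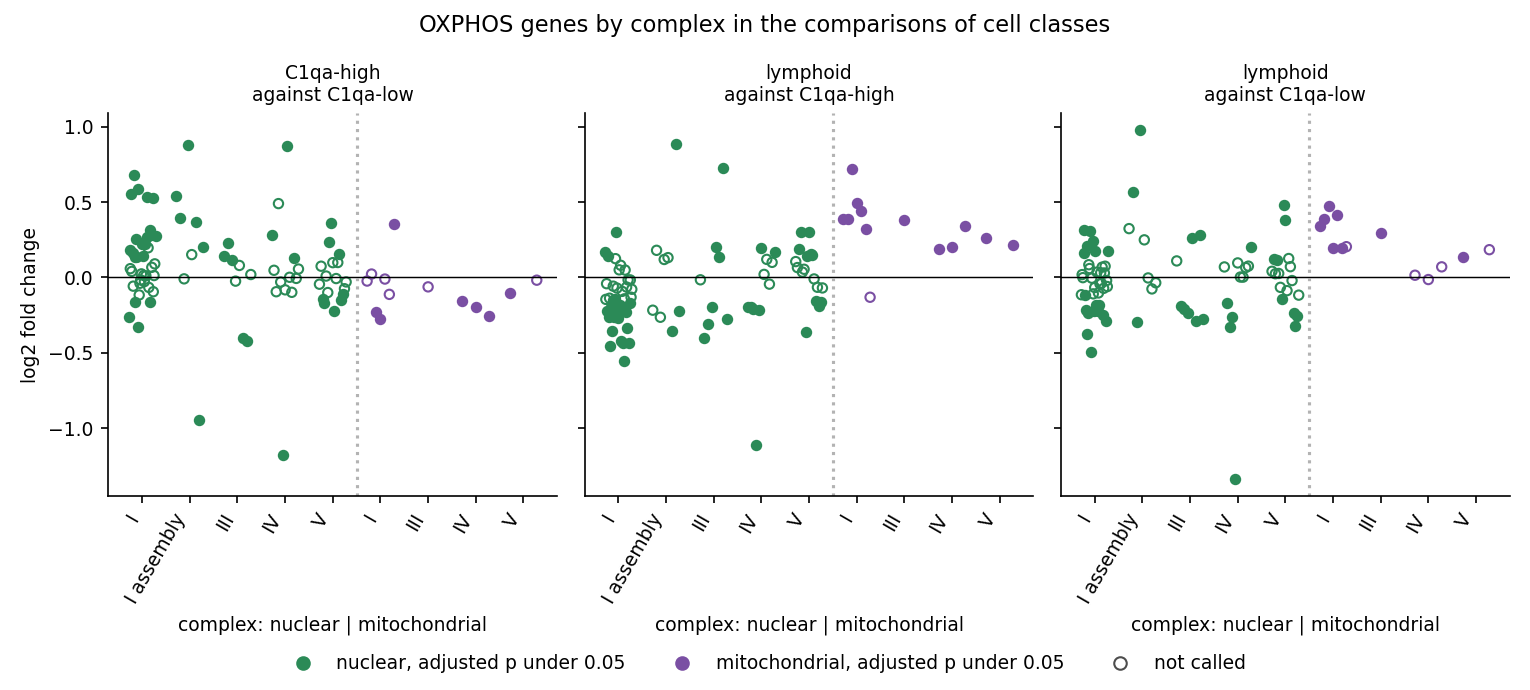
Log2 fold change of each gene in the 3 comparisons of cell classes, by complex, with nuclear genes left and mitochondrial genes right of the dotted line and filled points for an adjusted p under 0.05 (Cox7a2l is not drawn). Over all kept cells, nuclear complex I genes lie mostly above 0 in C1qa-high against C1qa-low cells (16 of 37 called higher, 4 lower). Of all genes 28.6% were called higher and 27.4% lower there. In lymphoid against C1qa-high cells nuclear complex I genes lie mostly below 0 (3 called higher, 18 lower), and 12 of 13 mitochondrial genes are called higher. Of all genes 30.5% were called higher and 29.8% lower in that comparison.

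Of all genes, 28.6% were called higher and 27.4% lower in C1qa-high against C1qa-low cells. Complex I, which oxidizes NADH, has 37 of the 84 nuclear members and held 16 of the 30 that were higher. Of its 37 nuclear members 16 rose, 4 fell and 17 were not called, with a median of 0.09. Its nuclear sum was 6683 CPM in C1qa-high and 5865 CPM in C1qa-low cells, and it was higher by 0.10 ± 0.05 after TMM in 8 of 8 mice. In CPM the sum was higher by 0.19 ± 0.05 over all kept cells and by 0.16 ± 0.05 at 6000 to 12000 UMIs, in 8 of 8 mice each. The value after TMM was not computed in that window, where TMM shifted this comparison by 0.09 ± 0.03. In that window the rises of Ndufa10, Ndufb4, Ndufb5, Ndufb8 and Ndufc1 and the fall of Ndufa6 lost their calls. The genes of largest fold were accessory subunits and a subunit of the electron path.

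Ndufc2 (7:97400003-97407802), a membrane-arm subunit, ran from 317 to 381 CPM (median 343) in C1qa-high cells and from 196 to 248 CPM (median 227) in C1qa-low cells. The classes did not overlap, and the log2 fold change was 0.53 ± 0.04 (SE, edgeR adjusted p = 2.99e-09). Ndufa5 (6:24518666-24528013), an accessory subunit of the matrix arm, had 94.2 to 145 CPM against 57.7 to 92.3 CPM. It differed by 0.68 ± 0.06 (edgeR adjusted p = 4.78e-08), again with no overlap. Ndufab1, the acyl carrier protein of the matrix, had 169 to 227 CPM against 111 to 144 CPM, with a fold change of 0.59 ± 0.05. Ndufa12 and Ndufs7, the latter a subunit that carries an iron-sulfur cluster, rose by 0.55 ± 0.05 and 0.53 ± 0.06 with no overlap between the classes. In cells of 6000 to 12000 UMIs Ndufa5 stayed at 0.70 and Ndufc2 at 0.50, both called.

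The subunits of complex I that fell in C1qa-high cells were Ndufa1, Ndufa6, Ndufb1-ps and Ndufs4. Ndufb1-ps, whose annotation is a bidirectional promoter lncRNA although its symbol is that of a subunit, had 333 to 369 CPM in C1qa-high and 388 to 450 CPM in C1qa-low cells, a fold change of -0.33 ± 0.04 with no overlap. Ndufa1 fell by 0.26 on the log2 scale and overlapped. The core subunits Ndufs1 (0.20 ± 0.13) and Ndufv1 (0.01), which take up the electrons of NADH, were not called.

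Of the 8 complex I assembly factors, which build the complex and are not part of it, 5 rose and 1 fell (28.6% and 27.4% of all genes). Ndufaf4, whose promoter is printed above, had 15.5 to 26.9 CPM in C1qa-high and 7.67 to 14.3 CPM in C1qa-low cells (0.88 ± 0.11, edgeR adjusted p = 1.93e-06). Ndufaf7, a methyltransferase, went the other way, with 6.35 to 15.3 CPM against 16.0 to 23.7 CPM (-0.94 ± 0.12). Neither overlapped between the classes. Both lie at a low level and outside the rule for named genes.

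Complex III passes electrons to cytochrome c. Uqcrh, its hinge subunit, had the smallest p of these genes in the comparison of lymphoid with C1qa-high cells. In lymphoid cells it was at 677 and 673 CPM in the E0771 mice, 584, 588 and 641 CPM in the E0771-Res1 mice and 570, 561 and 541 CPM in the E0771-Res2 mice. In C1qa-high cells the values were 351 and 347, 389, 332 and 358, and 335, 317 and 326 CPM. C1qa-low cells lay between them at 442 and 456, 430, 452 and 459, and 402, 449 and 406 CPM. None of the 3 classes overlapped for Uqcrh over these 8 mice.

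The fold changes of Uqcrh were -0.42 ± 0.05 in C1qa-high against C1qa-low cells (edgeR adjusted p = 4.5e-07), 0.73 ± 0.05 in lymphoid against C1qa-high cells (8.46e-10) and 0.28 ± 0.05 in lymphoid against C1qa-low cells (1.66e-05). At 6000 to 12000 UMIs they were -0.63, 0.95 and 0.33. Uqcrfs1, the Rieske iron-sulfur protein of the same complex, differed by -0.40 ± 0.05 in C1qa-high against C1qa-low cells and by -0.29 in lymphoid against C1qa-low cells. Its difference between lymphoid and C1qa-high cells (0.13, edgeR adjusted p = 0.0493) lost its call when any of 7 of the 8 mice was left out. Uqcrq, a small subunit, was lower in lymphoid cells than in both myeloid classes, at -0.28 in each. At 6000 to 12000 UMIs its call against C1qa-low cells was lost and that against C1qa-high cells was kept.

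In complex IV, cytochrome c oxidase, 3 nuclear subunits rose, 1 fell and 9 were not called between the myeloid classes, where 56% of all genes were called. Cox8a, at 838 CPM the highest nuclear member in C1qa-high cells, had fold changes of -0.01, 0.10 and 0.08 in the 3 comparisons and was not called, and neither was Cox7a2 (0.00, 0.02 and 0.00). Cox6a1 and Cox6b1 were lower in lymphoid than in C1qa-low cells, at -0.33 and -0.26. Of the isoforms known from heart and skeletal muscle, Cox7a1 averaged 5.81 CPM in C1qa-high and 2.88 CPM in C1qa-low cells (0.87 ± 0.19). Cox6a2 averaged 7.11 CPM in C1qa-high and 3.47 CPM in lymphoid cells (-1.11 ± 0.27). Both isoforms lie at a low level, with 324 UMIs of Cox7a1 and 490 of Cox6a2 in all kept cells. Neither call was kept at 6000 to 12000 UMIs. That of Cox7a1 was also not kept with C1qa per 10000 UMIs, nor that of Cox6a2 with lymphoid cells of at most 1 C1qa UMI. Ndufa4 and Cox7a2l were higher in lymphoid cells than in both myeloid classes, by 0.17 and 0.20 for Ndufa4 and by 0.22 and 0.18 for Cox7a2l. At 6000 to 12000 UMIs Ndufa4 lost both calls (0.11 against C1qa-high and 0.083 against C1qa-low cells), and Cox7a2l lost that against C1qa-low cells (0.17) and kept that against C1qa-high cells (0.29).

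Complex V makes the ATP, and between the myeloid classes 3 of its nuclear genes rose, 5 fell and 9 were not called (56% of all genes were called). Its subunit c is encoded in triplicate, since Atp5g1, Atp5g2 and Atp5g3 encode the same mature protein behind different import sequences. In lymphoid cells Atp5g1, Atp5g2 and Atp5g3 made up 28.6%, 45.7% and 25.7% of their summed 1152 CPM. In C1qa-high cells the shares were 37.0%, 42.1% and 20.9% of 1075 CPM, and in C1qa-low cells 37.6%, 39% and 23.4% of 850 CPM. Lymphoid cells thus held a smaller share of Atp5g1 and a larger share of Atp5g2 and Atp5g3.

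By gene, Atp5g2 ran from 461 to 584 CPM in lymphoid and from 301 to 380 CPM in C1qa-low cells without overlap, a difference of 0.48 ± 0.05 (edgeR adjusted p = 2.95e-08). Atp5g3 was higher in lymphoid cells than in both myeloid classes (0.30 and 0.38), whereas Atp5g1 was lower (-0.36 and -0.14). Against C1qa-low cells the direction of Atp5g1 rests on the scaling, since its mean was 328 CPM in lymphoid and 320 CPM in C1qa-low cells before TMM, and the call was lost without E0771 replicate 1, without E0771-Res1 replicate 1 or without E0771-Res2 replicate 2. The call of Atp5g2 against C1qa-high cells (0.14) was lost without E0771 replicate 3 or without E0771-Res1 replicate 3, and also at 6000 to 12000 UMIs. Atp5d, a subunit of the central stalk, had 418 to 541 CPM in lymphoid and 330 to 401 CPM in C1qa-high cells with no overlap (0.30 ± 0.06). Atp5b, the catalytic beta subunit, was called higher in lymphoid than in C1qa-low cells (0.12), and this call was lost in 6 of the 8 fits that leave out a mouse.

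In lymphoid against C1qa-high cells, 61 of 95 members tested were called, against 60.3% of 8912 genes (30.5% higher and 29.8% lower). Of the nuclear members 16 were higher and 33 lower, while 12 of 13 mitochondrial members were higher and 0 were lower. The median log2 fold change was -0.07 for the nuclear and 0.34 for the mitochondrial members, against -0.0019 for all genes. Of the nuclear calls in this comparison, 13 higher and 15 lower were kept at 6000 to 12000 UMIs. That window holds fewer cells per sum, so lost calls alone do not show a part of depth. In that window the nuclear sum after TMM differed by 0.03 ± 0.13, against -0.03 ± 0.08 over all kept cells. In lymphoid against C1qa-low cells 50 of 95 were called, against 64% of 9031 genes (31.4% higher and 32.6% lower). Here 17 nuclear members were higher and 25 lower, and 8 mitochondrial members were higher and 0 lower, with medians of -0.004 and 0.20 against 0.01 for all genes. Against both myeloid classes 8 mitochondrial and 9 nuclear members were higher in lymphoid cells, and 19 nuclear and 0 mitochondrial members were lower. The share of all genes called in the same direction in both comparisons was not counted, so nothing is read from these shared counts. Of the 25 nuclear members called lower than in C1qa-low cells, 6 (Atp5g1, Cox5b, Ndufa2, Ndufb6, Ndufc1 and Uqcr11) were not lower in mean CPM, and each other call of a member in these 3 comparisons had the same direction on both scales.

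Among nuclear complex I genes, 3 were higher in lymphoid than in C1qa-high cells (Ndufa1, Ndufa13 and Ndufb11) and 18 were lower, where 30.5% and 29.8% of all genes were. At 6000 to 12000 UMIs Ndufa1 lost its call. So did Ndufa2, Ndufa6, Ndufa8, Ndufb1-ps, Ndufb3, Ndufb4, Ndufb6 and Ndufs3 among the lower genes. Ndufc2 had 223 to 276 CPM in lymphoid cells, below the 317 to 381 CPM of C1qa-high cells (-0.55 ± 0.05, edgeR adjusted p = 3.62e-08), and against C1qa-low cells its fold change was -0.04 and not called. Ndufs7 behaved likewise, at 127 to 147 CPM in lymphoid against 162 to 196 CPM in C1qa-high cells (-0.44 ± 0.05). Ndufa5 and Ndufb8 were lower by fold changes of -0.46 and -0.42, with overlap. Ndufb11, a membrane-arm subunit encoded on the X chromosome, had 205 to 242 CPM in lymphoid and 152 to 186 CPM in C1qa-high cells (0.30 ± 0.06), with no overlap.

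The 13 mitochondrial genes were not alike. mt-Nd3, a membrane subunit of complex I, ran from 69.6 to 96.7 CPM (median 80.7) in lymphoid cells, from 39.9 to 53.1 CPM (median 44.3) in C1qa-high cells and from 42.0 to 60.7 CPM (median 51.6) in C1qa-low cells. Lymphoid cells did not overlap with either myeloid class. Its fold changes in lymphoid cells were 0.72 ± 0.08 against C1qa-high (edgeR adjusted p = 4.45e-07) and 0.47 ± 0.07 against C1qa-low cells (3.06e-06). mt-Nd4, a proton-pumping subunit, had 801 to 933 CPM in lymphoid, 481 to 714 CPM in C1qa-high and 545 to 770 CPM in C1qa-low cells, with fold changes of 0.50 ± 0.06 and 0.20 ± 0.05. mt-Nd1, mt-Nd2 and mt-Nd4l of complex I were higher in lymphoid cells than in C1qa-low cells by 0.34, 0.39 and 0.41, and mt-Cytb, the core of complex III, by 0.30. mt-Nd5 was higher by 0.20, a call that was lost without E0771-Res1 replicate 2 (edgeR adjusted p = 0.0511), and mt-Atp6 of ATP synthase by 0.14. The difference of mt-Atp8 from C1qa-high cells (0.22) lost its call in 4 of 8 fits that leave out a mouse, and that of mt-Atp6 between C1qa-high and C1qa-low cells (-0.10) in 5 of 8.

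The core subunits of complex IV differed from this. mt-Co1, the catalytic subunit, had 4018 to 5333 CPM in lymphoid and 3507 to 4991 CPM in C1qa-low cells, and its fold change after TMM was 0.01 ± 0.04 (edgeR adjusted p = 0.787). mt-Co2 (-0.01) and mt-Co3 (0.07) were not called in that comparison, although the 3 genes were higher in CPM in lymphoid cells in 8 of 8 mice. At 6000 to 12000 UMIs the same fold changes were 0.32, 0.21 and 0.28, and all 3 were called. Within the mitochondrial set mt-Co1 took 23.8% of UMIs in lymphoid, 25.4% in C1qa-high and 25.3% in C1qa-low cells, whereas mt-Cytb took 7.02%, 6.54% and 6.14%. The 3 genes mt-Co1, mt-Co2 and mt-Co3 fell in C1qa-high against C1qa-low cells by 0.15, 0.19 and 0.26 on the log2 scale. The call of mt-Co1 was lost at 6000 to 12000 UMIs (-0.07) and with the classes set by C1qa per 10000 UMIs (-0.05), and also without mouse as a block (-0.15). The calls of mt-Atp6 and mt-Nd3 were lost under the depth and C1qa settings as well.

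**Figure D4:**
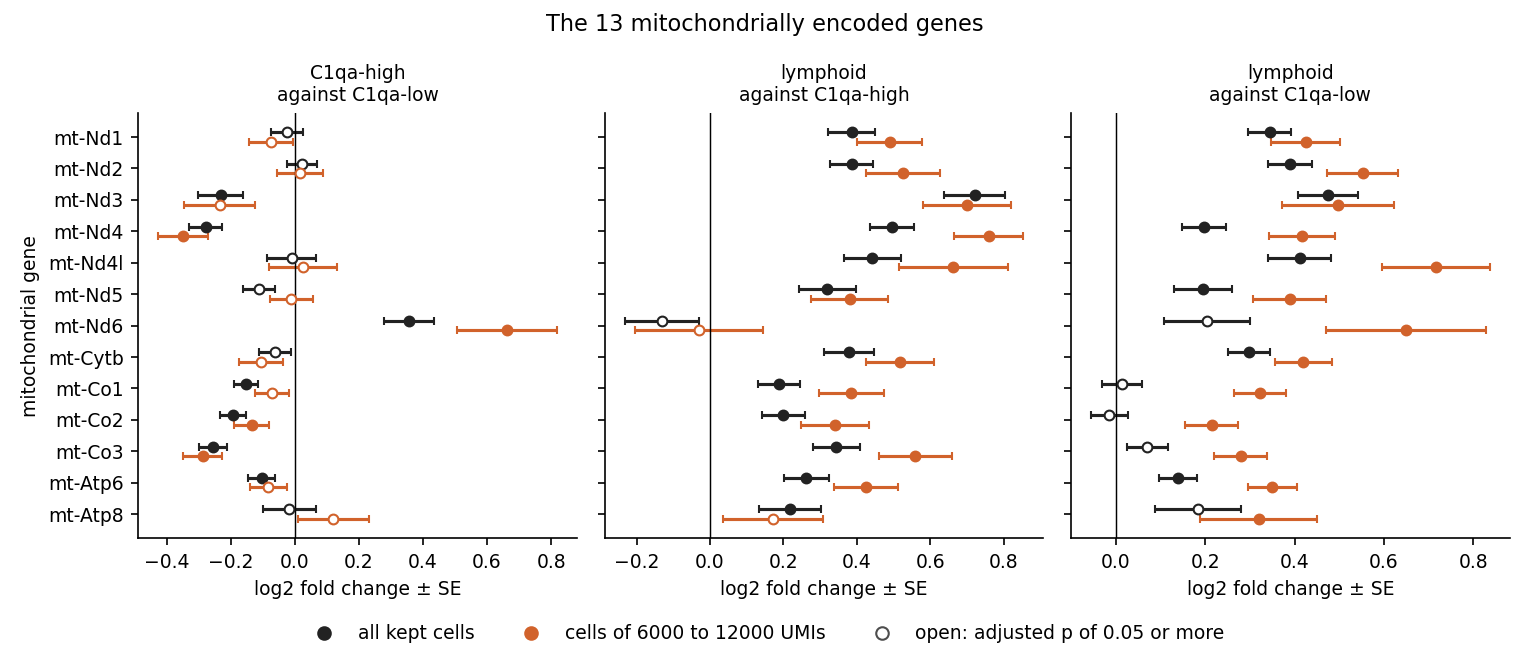
Log2 fold change ± SE of the 13 mitochondrial genes in the 3 comparisons, for all kept cells (black) and for cells of 6000 to 12000 UMIs (orange), with open points where the adjusted p was 0.05 or more. In lymphoid against C1qa-low cells mt-Nd3 is at 0.47 and mt-Co1 at 0.01 in all kept cells, and 13 of 13 genes are called in the depth window. The share of all genes called in that window is not given here, so nothing is read from this count.

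mt-Nd6, the sole mitochondrial member on the minus strand, moved apart from the others. It ran from 29.6 to 57.3 CPM (median 37.6) in C1qa-high cells and from 18.3 to 43.5 CPM (median 28.3) in C1qa-low cells, higher in C1qa-high cells in 8 of 8 mice (0.36 ± 0.08, edgeR adjusted p = 0.000813). In lymphoid cells it ran from 26.5 to 50.3 CPM, with fold changes of -0.13 against C1qa-high and 0.20 against C1qa-low cells, neither called. In the depth window mt-Nd6 was at 0.66 in C1qa-high and 0.65 in lymphoid cells against C1qa-low cells, both called.

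With the lymphoid class limited to cells of at most 1 C1qa UMI, 12 of the 12 mitochondrial calls against C1qa-high cells and 8 of the 8 against C1qa-low cells were kept, and 42 of 49 and 34 of 42 of the nuclear calls. This limit does not act on RNA of C1qa-low monocytes, whose markers the lymphoid sums also held. At 6000 to 12000 UMIs, 11 of 12 and 8 of 8 of the mitochondrial calls and 28 of 49 and 15 of 42 of the nuclear calls were kept, and 0 turned. Of the calls between C1qa-high and C1qa-low cells, 31 of 43 nuclear and 4 of 7 mitochondrial were kept there.

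The promoter motifs were counted by call, as a description with no test on small numbers of genes. NRF1 letters stood in 25.9% of the nuclear members that rose in C1qa-high against C1qa-low cells, in 25.0% of those that fell and in 22.6% of those not called. The SP1 letters stood in 55.6%, 41.7% and 35.5% of the same groups and the ETS letters in 18.5%, 33.3% and 25.8%. Between lymphoid and C1qa-low cells the ETS letters stood in 1 of 16 promoters of members that rose and in 7 of 20 of those that fell, and the SP1 letters in 10 and 8. Ndufs5, with the NRF1 letters, rose (0.28) and Atp5h, also with them, fell (-0.23).

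Other genes of the pathway were not matched by the symbols. Of the 4 subunits of complex II (succinate dehydrogenase), 3 rose in C1qa-high against C1qa-low cells, and 2 and 3 were lower in lymphoid than in C1qa-high and C1qa-low cells. Sdhb, its iron-sulfur subunit, had fold changes of 0.12, -0.30 and -0.20 in the 3 comparisons, and the first was lost in 5 of 8 fits that leave out a mouse. Cycs, cytochrome c, ran from 280.5 to 329 CPM in C1qa-low cells, above the 200 to 263 CPM of C1qa-high and the 187 to 238 CPM of lymphoid cells (-0.45 and -0.69). Cox4i1, a nuclear subunit of complex IV, was lower in both C1qa-high and lymphoid cells than in C1qa-low cells (-0.18 and -0.25), and its difference between lymphoid and C1qa-high cells was -0.05 and not called.

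Between tumor lines, few members differed within a class. The mitochondrial sum in C1qa-high cells averaged 13533 CPM in E0771, 15466 CPM in E0771-Res1 and 16847 CPM in E0771-Res2 tumors, and the ratio to the nuclear sum was 0.694, 0.750 and 0.856. In C1qa-low cells the ratios were 0.803, 0.884 and 0.936, and in lymphoid cells 0.939, 0.916 and 1.02. The ratios of E0771-Res2 mice lay above those of both E0771 mice in C1qa-high and lymphoid cells, and those of E0771-Res1 mice lay above both in C1qa-low cells. The other pairs of lines overlapped. In cells of 6000 to 12000 UMIs the mice of E0771-Res2 again lay above both E0771 mice in C1qa-high cells (0.720 to 0.859 against 0.512 and 0.698) and in lymphoid cells (0.950 to 1.06 against 0.847 and 0.944). Those of E0771-Res1 then overlapped with E0771 in C1qa-low cells (0.759 to 0.794 against 0.690 and 0.763), and in lymphoid cells the mean ratio of E0771-Res1 was above that of E0771 (0.962 and 0.895), the other way round than over all kept cells. Kept cells of E0771-Res2 mice were shallower, with medians of 5589 to 7001 UMIs per mouse against 7631 to 8160 in the other mice, and Malat1, a nuclear RNA, was called higher in them in all 3 classes, by 0.39 to 0.60 against either line. The part of depth and of Malat1 in the line differences was not tested beyond this depth window.

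In E0771-Res2 against E0771 tumors 0 members were called in any class by edgeR and 0 by DESeq2, where 1.01% (lymphoid), 1.78% (C1qa-high) and 4.58% (C1qa-low) of all genes were called by edgeR. At an unadjusted p under 0.05 there were 9, 22 and 14 members. The share of all genes at that unadjusted threshold was not counted, here or in the comparisons below, so nothing is read from such counts of members. In C1qa-high cells 13 of 13 mitochondrial genes had a positive fold change, with a median of 0.28 and a range from 0.01 to 0.58. The smallest edgeR adjusted p was 0.0850 for mt-Co1. The share of all genes with a positive fold change was not counted, so nothing is read from this count of signs. In E0771-Res1 against E0771 tumors, which shares the same 2 E0771 mice, 0 members were called by either tool, against 0.0421%, 0.0534% and 0.03% of all genes, and 1, 7 and 6 members had an unadjusted p under 0.05. The mitochondrial medians were -0.0001, 0.18 and 0.22 in lymphoid, C1qa-high and C1qa-low cells.

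In E0771-Res2 against E0771-Res1 tumors 0 members were called in lymphoid cells (8 at an unadjusted p under 0.05, 0 by DESeq2, 1.01% of all genes by edgeR), 2 in C1qa-high cells (2.73% of all genes, with 1.58% higher and 1.15% lower) and 3 in C1qa-low cells (4.29%, with 2.35% higher and 1.93% lower). mt-Nd6 in C1qa-high cells had 52.2, 45.0 and 57.3 CPM in the E0771-Res2 mice and 36.2, 34.5 and 30.1 CPM in the E0771-Res1 mice, and the E0771 mice had 38.9 and 29.6 CPM. The E0771-Res2 mice were above all 5 others, and the fold change was 0.62 ± 0.13 (edgeR adjusted p = 0.0255). In C1qa-low cells mt-Nd6 had 35.8, 39.3 and 43.5 CPM against 31.6, 19.8 and 18.3 CPM, again without overlap (0.69 ± 0.17, adjusted p = 0.0313), and the E0771 mice were at 24.5 and 24.9 CPM.

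**Figure D5:**
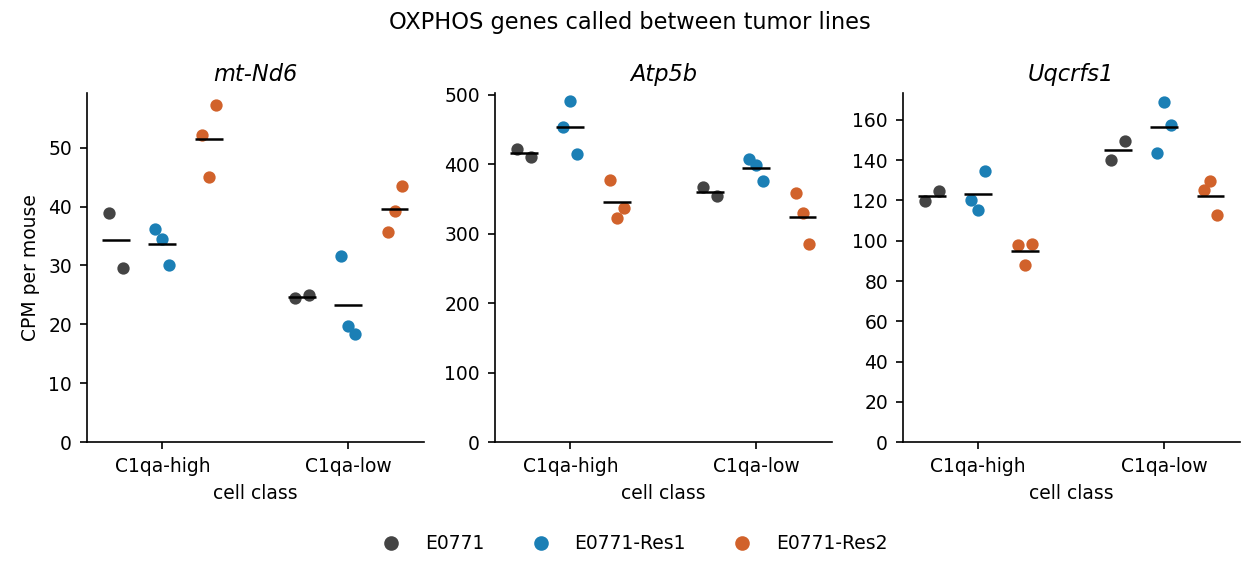
CPM of mt-Nd6, Atp5b and Uqcrfs1 in C1qa-high and C1qa-low cells, with a point per mouse colored by line and a bar at the mean of the line. For mt-Nd6 the E0771-Res2 mice sit at 45.0 to 57.3 CPM in C1qa-high cells, above the 29.6 to 38.9 CPM of the other mice, and Atp5b and Uqcrfs1 have their lowest means in E0771-Res2 mice.

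Atp5b and Uqcrfs1 were lower in E0771-Res2 than in E0771-Res1 tumors. Atp5b (10:128083273-128090391) in C1qa-high cells had 376, 323 and 337 CPM in E0771-Res2 and 453, 491 and 415 CPM in E0771-Res1 mice, without overlap (-0.37 ± 0.09, edgeR adjusted p = 0.0377). Uqcrfs1 (13:30540308-30545362) had 125, 129 and 113 CPM against 143, 169 and 157 CPM in C1qa-low cells (-0.37 ± 0.10, adjusted p = 0.0451), and these groups did not overlap either.

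These line differences were close to the threshold. In the fits that leave out 1 mouse, the call of Atp5b was lost in 7 of 8 and that of Uqcrfs1 in 6 of 8, with adjusted p up to 0.173 and 0.209. mt-Nd6 lost its call in 3 of 8 fits in C1qa-high cells (without E0771-Res1 replicate 2 or E0771-Res2 replicate 1 or 3) and in 6 of 8 in C1qa-low cells, with adjusted p up to 0.147 and 0.145. At 6000 to 12000 UMIs 0 members were called between these lines, with fold changes of 0.44 and 0.58 for mt-Nd6, -0.32 for Atp5b and -0.27 for Uqcrfs1. Whether the line effect differed between C1qa-high and C1qa-low cells was tested as an interaction, and 0 members were called for E0771-Res1 or E0771-Res2 against E0771 (6 and 9 at an unadjusted p under 0.05, and 0 by DESeq2), against 0% and 0.28% of 10351 genes.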

How the data were processed

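CD45+ cells of 8 tumors were profiled by 3′ single-cell RNA sequencing. Per the file headers, the authors counted UMIs with Cell Ranger 6.1.2, and the deposited matrices hold whole UMI counts, not normalized, with a matrix for every mouse. The submitters' processing notes name mm10 and Seurat. Doublets were not called here, and 0 columns stayed unmapped. Cells were kept with 500 to 6000 genes and an mt- share under 10%, and C1qa and marker UMIs defined the classes. Counts were summed per mouse and class (at least 10 cells), filtered with filterByExpr and tested with edgeR 4.0.16 (TMM, quasi-likelihood test, adjusted p under 0.05) in R 4.3.3, with mouse as a block between classes and a single fit of the 3 lines within a class. Sums, CPM and motifs used Python 3.11.15, pandas 2.3.3 and scipy 1.17.1. Gene coordinates and promoters are those of GRCm38, the assembly behind mm10. Replicate counts differed beyond sampling noise, so each mouse was counted as a sample.

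The members and lists were chosen with earlier results of these data known. Named were all mitochondrial members, the 5 nuclear members of largest fold per direction between classes and the 3 between lines (adjusted p under 0.05, average log2 CPM of at least 4, the same sign in every mouse or no overlap between lines), fixed paralogs and catalytic subunits, and of each other list the called gene of largest fold per direction. Genes with other reasons to be shown (Ndufaf4, Ndufaf7, Ndufs5 and Atp5h) were chosen after their values were seen. Alternatives were DESeq2 1.42.0, no filter on low counts, a library size from nuclear genes, an mt- share under 20% or without a limit, at least 1000 genes, C1qa per 10000 UMIs, lymphoid cells of at most 1 C1qa UMI, cells of 6000 to 12000 UMIs, leaving out each mouse, and the replicate number as a block. In simulated data the test between C1qa-high and C1qa-low cells (9315 genes) recovered 74% of 50 genes changed by 0.5 and 100% of 50 changed by 1 on the log2 scale. That between E0771-Res2 and E0771-Res1 in C1qa-high cells (9366 genes) recovered 22% and 66%. Changes of 1.5 and 2, of 50 genes each, were recovered at 98% and 100% (classes) and at 92% and 96% (lines). These simulated tests also called 11 (classes) and 18 (lines) genes that had not been changed. The share of such genes among all calls was not computed. A gene that was called between lines is counted but not reported here.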

Additional observations from a re-analysis of the deposited data

How the results depend on the processing

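Line differences rest on 2 or 3 mice, so that an absent call is no sign of an equal level. In the simulated tests of E0771-Res2 against E0771-Res1, log2 changes of 0.5 were mostly missed in genes drawn at random over all tested genes. The members alone and the comparisons with the 2 E0771 mice were not simulated, so that recovery is not a value for them. Depth per cell limits the mitochondrial sums, since they were a larger share of the UMIs in shallow cells. In cells of 6000 to 12000 UMIs, chosen after the data had been seen, the calls of lymphoid against C1qa-low cells went from 50 to 31 genes and those of E0771-Res2 against E0771-Res1 tumors to 0 in C1qa-high and 0 in C1qa-low cells, in a setting with fewer cells per sum. DESeq2 called 1 gene between E0771-Res2 and E0771-Res1 tumors in C1qa-high cells. Without a filter on low counts the calls were 7 (E0771-Res2 against E0771) and 6 (E0771-Res2 against E0771-Res1) in C1qa-high cells, and 1 (E0771-Res1 against E0771), 4 and 6 in C1qa-low cells. Without a limit on the mt- share, also chosen after the data had been seen, 1 gene was called in E0771-Res2 against E0771 tumors in C1qa-low cells. The cause was not tested. With each mouse left out in turn the calls ran from 45 to 53 (C1qa-high against C1qa-low), from 52 to 58 (lymphoid against C1qa-high), from 45 to 51 (lymphoid against C1qa-low), from 0 to 1 and from 0 to 2 (E0771-Res2 against E0771 in C1qa-high and C1qa-low cells) and from 0 to 4 in both for E0771-Res2 against E0771-Res1. Without 1 of the 2 E0771 mice the other is assumed to vary like the other groups. The remaining counts stayed within 1.5 times their value.

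The titles share replicate numbers across lines, but the mice are numbered separately in the descriptions, and deviations of samples with the same number correlated by medians of 0.121 (C1qa-high), 0.0119 (C1qa-low) and 0.037 (lymphoid), so the numbers were not taken as pairs. With the number as a replicate block, 2 and 3 genes were called between E0771-Res2 and E0771-Res1 and 0 in the other line comparisons, as without it. Without mouse as a block, 39, 54 and 44 genes were called between the classes.

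Genes with small differences turned their sign under some settings, and among the called differences this held for Atp5b in lymphoid against C1qa-low cells (-0.0140 at 6000 to 12000 UMIs). Between C1qa-high and C1qa-low cells Atp5b was -0.0187 with C1qa per 10000 UMIs and -0.126 at 6000 to 12000 UMIs, Atp5g3 -0.142 at that depth, Ndufa4 -0.0259 and -0.0406 under these settings, and Cox8a 0.000823 with an mt- share under 20%. Cox7a2 was -0.0105 with DESeq2, -0.0157 without a filter and with C1qa per 10000 UMIs, -0.0175 with the nuclear library size, -0.0110 with at least 1000 genes, -0.000878 without an mt- limit and -0.0808 at that depth, and Ndufv1 was -0.00307, -0.00209, -0.0162, -0.00752 and -0.187 with DESeq2, no filter, C1qa per 10000 UMIs, the nuclear library size and that depth. mt-Atp8 was 0.0221, 0.122 and 0.12 and mt-Nd4l 0.0150, 0.0397 and 0.0261 with at least 1000 genes, C1qa per 10000 UMIs and that depth, mt-Nd1 0.0111 with at least 1000 genes, and mt-Nd2 -0.0498 and -0.0623 with an mt- share under 20% and no limit. Between lymphoid and C1qa-high cells, at that depth, Cox4i1 was 0.12 and Ndufs1 0.0399, while Cox7a2 was -0.0112 without a filter and Ndufv1 0.00237 with C1qa per 10000 UMIs. Between lymphoid and C1qa-low cells, without a filter, Cox7a2 was -0.0679, Ndufs1 -0.0383, mt-Co1 -0.0563 and mt-Co3 -0.000683. There Cox7a2 was also -0.00351 with at least 1000 genes and -0.00353 at that depth, Ndufv1 0.00135 in lymphoid cells of at most 1 C1qa UMI, mt-Co1 -0.0221 and -0.0224 with an mt- share under 20% and no limit, and mt-Co2 0.0198, 0.00933, 0.00334 and 0.215 with at least 1000 genes, C1qa per 10000 UMIs, lymphoid cells of at most 1 C1qa UMI and that depth. The cause was not tested. Of the values of named genes under the alternatives, 2482 kept their direction and side of the threshold, 145 lost a call, 33 gained one and 76 turned.

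With each mouse left out in turn, fold changes near 0 also turned. Between C1qa-high and C1qa-low cells they ran from -0.0294 to 0.0155 for Cox7a2, from -0.0636 to 0.00484 for Cox7a2l, from -0.0283 to 0.00318 for Cox8a, from -0.00981 to 0.0259 for Ndufv1, from -0.0781 to 0.0512 for mt-Atp8 and from -0.0610 to 0.0273 for mt-Nd4l. Between lymphoid and C1qa-high cells they ran from -0.00393 to 0.0498 for Cox7a2 and from -0.0392 to 0.0288 for Ndufv1. Between lymphoid and C1qa-low cells they ran from -0.0392 to 0.0365 for Cox7a2, from -0.0122 to 0.149 for Ndufs1, from -0.0564 to 0.0109 for Ndufv1, from -0.0200 to 0.0481 for mt-Co1 and from -0.0525 to 0.0107 for mt-Co2.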

Other observations

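Genes that build and supply the mitochondrion were also compared between the classes, in lists that the symbol rule does not use. Of all genes tested, 28.6% were called higher and 27.4% lower in C1qa-high against C1qa-low cells, 30.5% and 29.8% in lymphoid against C1qa-high cells, and 31.4% and 32.6% in lymphoid against C1qa-low cells. The counts below are descriptions to be read against these shares, and for lists of few genes or with counts near them nothing is read from the count. They were made over all kept cells only, where C1qa-high cells were deeper than C1qa-low cells, and the part of depth in them was not tested. Proteins of the mitochondrial ribosome, which translates the 13 mitochondrial mRNAs, were higher in C1qa-high than in C1qa-low cells for 55 of 78 genes and lower for 3, with a median log2 fold change of 0.32 against 0.03 for all genes tested. In lymphoid against C1qa-high cells 5 were higher and 37 lower (median -0.17), and against C1qa-low cells 23 were higher and 14 lower (median 0.08). Of 13 genes of import into the mitochondrion, 8 were higher and 0 lower in C1qa-high cells (median 0.17), among them Tomm40 (0.57), the channel of the outer membrane. In lymphoid cells Tomm40 was at -0.38 and Hspd1, the matrix chaperone, at 0.24 against C1qa-high and 0.74 against C1qa-low cells, with 1 higher and 3 lower of 13 import genes against the former and 5 higher and 0 lower against the latter.

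Factors that assemble complexes III and V were higher in C1qa-high cells for 6 of 8 genes (median 0.44), among them Atpaf1 (0.76), while Ttc19 was lower (-0.56). In lymphoid cells 1 of 7 was higher and 2 lower than in C1qa-high cells (Ttc19 0.61 and Uqcc2 -0.33), and 3 of 7 were higher and 0 lower than in C1qa-low cells (Atpaf1 0.93). Of 18 assembly factors of complex IV, 9 were higher in C1qa-high cells, with Taco1, a translational activator of mt-Co1, at 0.81, and 2 were lower, with the copper chaperone Cox17 at -0.35. Of 17 tested, 3 were higher and 5 lower in lymphoid than in C1qa-high cells (Cox18 0.47, Sco2 -0.51), and 2 and 5 against C1qa-low cells (Cox20 0.51, Coa5 -0.45). Of 4 complex II genes 3 were higher and 0 lower in C1qa-high cells (Sdha, the flavoprotein, 0.27), and 0 were higher and 2 and 3 lower in lymphoid against C1qa-high and C1qa-low cells, with Sdhc at -0.36 and -0.20 in lymphoid cells, the latter lost in 3 of 8 fits that leave out a mouse. Of 4 other genes of the chain, 1 rose (Atpif1, the ATP synthase inhibitor, 0.33) and 2 fell in C1qa-high cells, and 0 rose and 2 fell in each comparison of lymphoid cells (Atpif1 -0.44 against C1qa-high cells).

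Genes that copy and transcribe mitochondrial DNA were higher for 6 of 14 and lower for 1 in C1qa-high cells (median 0.10, Tefm 0.73, Pnpt1 -0.24). In lymphoid cells 4 of 13 were higher and 3 lower than in C1qa-high cells (Polg2 1.15, Tefm -1.24), and 5 and 2 against C1qa-low cells (Tfb2m 0.96, Pnpt1 -0.60). Of 8 nuclear regulators 2 rose (Ppargc1b 0.93) and 2 fell in C1qa-high cells, and Nrf1, the factor of the promoter motif above, was at -0.31, a call lost without E0771-Res2 replicate 3 (edgeR adjusted p = 0.0636). In lymphoid cells 5 of 7 were higher and 1 lower than in C1qa-high cells (Gabpb1, a GABP subunit, 0.81; Esrra -0.56), and 2 and 1 against C1qa-low cells (Gabpb1 0.76, Esrra -0.55). Of 13 enzymes of the citric acid cycle 4 were higher and 3 lower in C1qa-high cells, close to the shares of all genes (Suclg2 0.70, Dlst -0.42), 3 and 2 in lymphoid against C1qa-high cells (Idh3a 0.59, and Dld -0.23, lost in 5 of 8 fits that leave out a mouse) and 3 and 1 against C1qa-low cells (Suclg2 0.89, Dlst -0.58). Of 10 carriers and channels 3 rose and 3 fell in C1qa-high cells, also close to those shares (Vdac1 0.39, Slc25a20 -0.61). In lymphoid cells 1 was higher and 5 lower than in C1qa-high cells, and 1 and 6 against C1qa-low cells, with Slc25a4, the ADP/ATP carrier, at 0.63 and 0.89, Ucp2 at -0.54 against the former and Slc25a20 at -0.75 against the latter.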
